A study of Homo sapiens with 4 samples.

Results

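MAF, a transcription factor that acts as an oncogene in multiple myeloma, was examined together with 9 genes listed as its targets or companions in this disease: CCND2, ITGB7, CCR1, CX3CR1, NUAK1, RND3, NTRK2, DEPTOR and ARID5A. The 10 genes were chosen by name, as genes associated with MAF in myeloma, from the 60682 genes of the count table, and 8 of the 10 had enough counts to be among the 14864 genes tested. That choice, like that of the gene lists below, was made with earlier results of these data known. Comparisons with all tested genes are therefore descriptive. RNA-seq of total RNA was made from JJN3 cells, an established human multiple myeloma line, in 2 groups of 2 libraries each. The shWNK1 libraries came from JJN3 cells carrying a short hairpin RNA (shRNA) against WNK1, a protein kinase that controls ion transport and cell volume. The NS libraries came from JJN3 cells carrying the NS shRNA, an abbreviation that the labels do not spell out. All 4 libraries come from the same line, grown in a mixture of DMEM, IMDM and fetal bovine serum, with RNA taken by Trizol. The labels name no hairpin sequence, vector or time after transduction. They do not say whether replicates are separate transductions or cultures, so the p-values below reflect library-to-library spread alone, and that spread may be technical. The question the members address is whether the MAF-associated genes of these cells differed where WNK1 was knocked down.

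MAF is a large member of the MAF family of basic leucine zipper (bZIP) transcription factors, which bind DNA as dimers at sites called MAF recognition elements. In a subset of myelomas a translocation places MAF beside the immunoglobulin heavy chain enhancers, and JJN3 is known as a line of that subset. MAF-expressing myelomas are known for high cyclin D2 (CCND2), which drives entry into the cell cycle, and for high integrin β7 (ITGB7), through which the tumor cells attach to bone marrow stroma. The other genes, CCR1, CX3CR1, NUAK1, RND3, NTRK2, DEPTOR and ARID5A, are known from expression studies as genes high in MAF-positive myelomas.

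The promoters of MAF, ITGB7 and RND3 are shown because MAF is the regulator and because ITGB7 and RND3 are members that differed between the groups. Each sequence is the 250 bases before the RefSeq transcription start on GRCh38.p14, read 5′ to 3′ on the gene's strand. Capitals mark matches, on either strand, to TGCTGA, a half-site of the MAF recognition element, or to TGACGTCA, the core of the cyclic AMP type of that element.
MAF promoter, chr16:79600738-79600987, minus strand: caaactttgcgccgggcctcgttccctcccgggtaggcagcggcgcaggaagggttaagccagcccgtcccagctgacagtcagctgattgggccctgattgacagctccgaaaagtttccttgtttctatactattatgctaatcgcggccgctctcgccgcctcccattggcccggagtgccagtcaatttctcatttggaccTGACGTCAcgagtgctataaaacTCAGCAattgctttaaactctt
ITGB7 promoter, chr12:53207252-53207501, minus strand: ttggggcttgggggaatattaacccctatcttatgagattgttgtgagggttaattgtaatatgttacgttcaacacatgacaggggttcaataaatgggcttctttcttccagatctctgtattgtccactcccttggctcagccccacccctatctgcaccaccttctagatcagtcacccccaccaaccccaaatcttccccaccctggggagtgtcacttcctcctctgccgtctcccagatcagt
RND3 promoter, chr2:150487696-150487945, minus strand: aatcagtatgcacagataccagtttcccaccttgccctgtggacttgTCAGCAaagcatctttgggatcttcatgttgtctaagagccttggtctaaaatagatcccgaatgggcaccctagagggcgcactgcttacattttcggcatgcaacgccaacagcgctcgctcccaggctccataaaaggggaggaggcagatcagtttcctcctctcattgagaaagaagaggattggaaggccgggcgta
The MAF window held one core match, 45 bases before the start, and one half-site on the other strand, 22 bases before it. The RND3 window held one half-site, on the other strand, 203 bases before the start. That window lies inside the RND3 span used for counting, chr2:150468195-150539011, which reaches farther upstream on the minus strand. The ITGB7 window held neither.

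In windows of 250 bases before to 50 bases after the start, RefSeq entries were matched for 8 of the 10 members, in 15 windows. The half-site was in 4 of these 15 windows, from MAF, CX3CR1 and RND3, where 2 overlapping RND3 windows hold the same match, against 17.3% of 35116 windows of all genes. The core TGACGTCA was in 1 of the 15 member windows, against 1.85% of all windows, and TGACTCA, the AP-1 type of core, was in 0 of 15 member windows, against 4.95%. A match is a run of letters and not a measured binding site.

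Depth ran between 16973521 and 20164122 counts for shWNK1, against 17392619 to 17491537 for NS. WNK1 checks the labels, with 325 and 403 counts for shWNK1, against 4911 and 4148 counts for NS. This is 19.1 ± 0.688 CPM (counts per 1000000 of the library, adjusted by TMM factors) for shWNK1, against 267 ± 30.3 CPM for NS (SD, n = 2 each). Of the 14864 tested genes, 38.8% passed edgeR's quasi-likelihood test at a Benjamini-Hochberg adjusted p below 0.05, with 18.5% higher and 20.2% lower in shWNK1 cells. In 68.4% of tested genes both libraries of one group lay above both of the other. Plasma cell markers were present at summed levels of 2330 and 2365 CPM in shWNK1 and 2299 and 2234 CPM in NS libraries. Their 9 genes went in both directions, 3 rising and 5 falling, from SDC1 (CD138) at 82.0 and 91.4 CPM in shWNK1 against 209 and 225 CPM in NS libraries to SLAMF7 at 12.1 and 11.3 CPM in shWNK1 against 1.35 and 1.65 CPM in NS libraries. Markers of T and NK cells, myeloid cells and erythroid cells each summed to at most 1.11 CPM in every library, and no marker of these lists passed 10 counts. The stromal or epithelial list summed to 128 and 134 CPM in shWNK1, against 120 and 131 CPM in NS libraries. Nearly all of it was EPCAM, an epithelial adhesion gene that was not called (log2 0.11, edgeR adjusted p 0.224), while KRT18 fell (log2 -0.49, adjusted p 0.0267) and the collagen genes had at most 3 counts. The summed mature B cell markers were 18.5 and 23.2 CPM in shWNK1 and 30.4 and 31.5 CPM in NS libraries, and whether the marker differences bear on any member was not tested. In bulk RNA, fewer cells with a transcript and less of it per cell cannot be told apart.

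MAF fell modestly in shWNK1 cells, while 4 of its companions rose. MAF, identifier ENSG00000178573.7, lies on the minus strand at chr16:79585843-79600737 of hg38. It had 8183 and 9656 counts in the shWNK1 libraries, against 9929 and 9725 counts in the NS libraries. Both shWNK1 values, 469.2 and 469.8 CPM, lay below both NS values, 582 and 575 CPM. Its mean was 469 ± 0.434 CPM in shWNK1 cells, against 578 ± 5.27 CPM in NS cells (SD, n = 2 each), a log2 fold change of -0.30 (SE 0.056, 95% interval -0.41 to -0.19), or 1.23-fold lower, with an edgeR adjusted p of 5.1e-05. With each library left out in turn the log2 fold change stayed between -0.31 and -0.29. Per length, MAF was at 237 and 235 TPM in shWNK1 libraries, against 286 and 275 TPM in NS libraries. It ranked 525 by mean TPM among the tested genes in shWNK1 cells and 448 in NS cells, so it stayed among the abundant transcripts of the line. Tested against a change of 1.5-fold, MAF was not called (adjusted p 1).

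**Figure D1:**
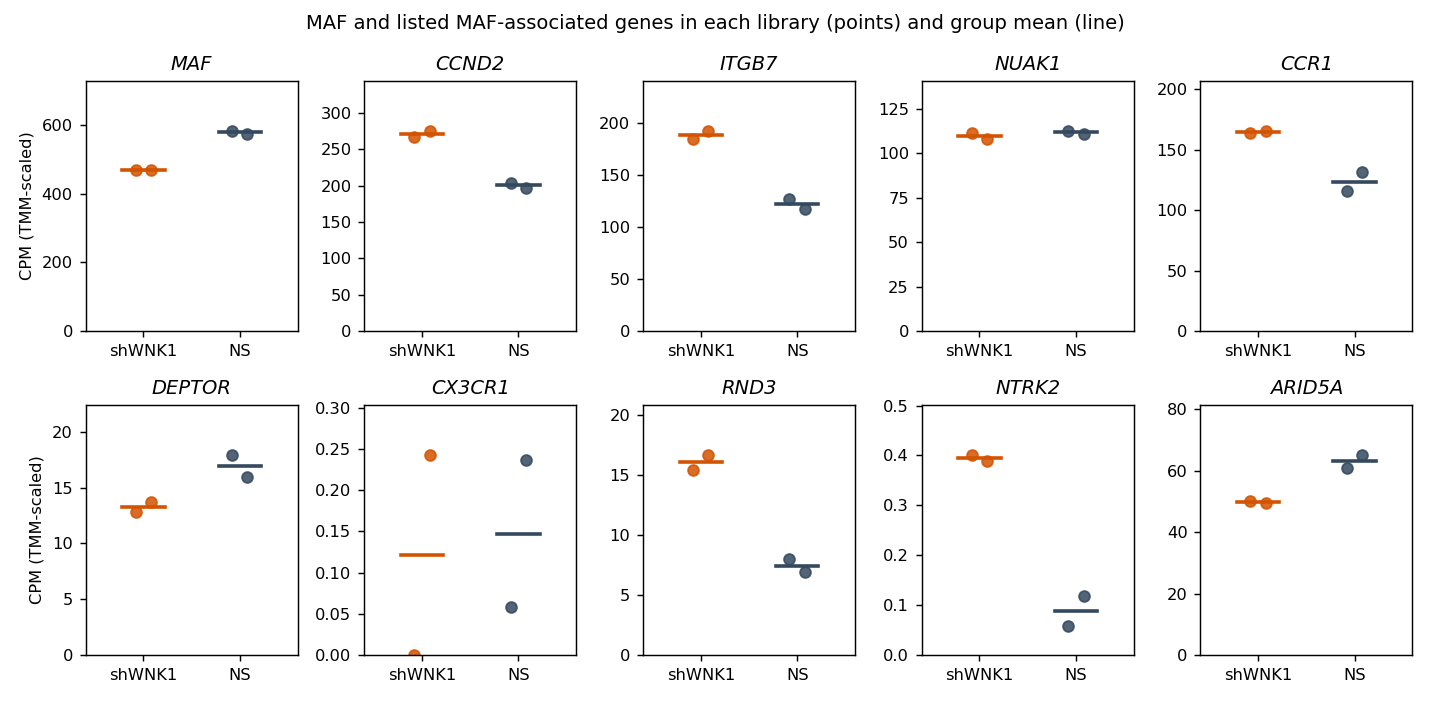
Level of each of the 10 members in every library, in CPM on linear axes from 0 that differ between panels, with shWNK1 left of NS; points are libraries and lines are group means. MAF lies at 469.2 and 469.8 CPM in shWNK1 against 582 and 575 CPM in NS libraries, and the NUAK1 points of the groups overlap. The CX3CR1 and NTRK2 panels rest on 8 counts or fewer per library.

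CCND2 rose and stayed the leading D cyclin. CCND2 (ENSG00000118971.8, plus strand, chr12:4273762-4305353) encodes cyclin D2, the activating partner of CDK4 and CDK6. It had 4660 and 5651 counts in shWNK1 libraries, against 3478 and 3334 in NS libraries, which is 267 and 275 CPM against 204 and 197 CPM, with no overlap. The means were 271 ± 5.48 CPM in shWNK1 cells, against 200.5 ± 4.88 CPM in NS cells (SD, n = 2 each), a log2 fold change of 0.44 (SE 0.060, 95% interval 0.31 to 0.56), 1.35-fold, edgeR adjusted p 4.7e-07. A share of 13.9% of its exon bases is also covered by CCND2-AS1, which runs on the opposite strand, and ENSG00000285901, and reads there cannot be told apart by strand. Of the TPM of the D cyclins, CCND2 held 69.9% and 71.1% in shWNK1 libraries and 68.0% and 67.8% in NS libraries. CCND1, the cyclin of another myeloma translocation, had 1 count in one shWNK1 library and 0 in the other 3 libraries. CCND3 rose by a log2 fold change of 0.26 (edgeR adjusted p 0.0068), 91.0 ± 1.83 CPM in shWNK1 against 76.2 ± 1.37 CPM in NS cells, but the call was lost without either shWNK1 library (adjusted p up to 0.11).

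Around the D cyclins, 8 of 13 tested genes of the list rose and 2 fell, where 18.5% of all tested genes rose and 20.2% fell. The median log2 fold change of the list was 0.30, against 0.01 over all tested genes. CDK6, a kinase that D cyclins activate, had 611 and 633 CPM in shWNK1 libraries, against 382 and 320.3 CPM in NS libraries, and rose 1.77-fold (log2 0.83, edgeR adjusted p 4.0e-11). CDK4, the other such kinase, fell by 0.32 on the log2 scale (81.3 and 77.2 CPM in shWNK1, 99.7 and 98.5 CPM in NS, adjusted p 6.5e-04). The inhibitor CDKN1A, which binds cyclin and CDK complexes, rose by 1.77 on the log2 scale (269 and 277 CPM in shWNK1, 79.3 and 80.9 CPM in NS, adjusted p 2.7e-20). CDKN2A, which blocks CDK4 and CDK6, fell by 0.22 on the log2 scale (adjusted p 0.025). That call was lost in 3 of the 4 fits that leave out a library, under DESeq2 and with upper-quartile factors. Of the other listed inhibitor genes, CDKN1B rose (log2 0.65, edgeR adjusted p 1.3e-07). So did CDKN2B (log2 0.77, adjusted p 0.0037) and CDKN2C (log2 0.19, adjusted p 0.025), while CDKN1C and CDKN2D were not called. Activators and inhibitors of the D cyclin kinases were thus both among the genes that rose.

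ITGB7 also rose. It encodes the β7 integrin subunit, which pairs with α4 (ITGA4) or αE (ITGAE). ITGB7 (ENSG00000139626.16, minus strand, chr12:53191323-53207282) had 3223 and 3948 counts in shWNK1 libraries, against 2162 and 1979 in NS libraries, which is 185 and 192 CPM against 127 and 117 CPM. The groups did not overlap: 188 ± 5.15 CPM in shWNK1 cells, against 122 ± 6.94 CPM in NS cells (SD, n = 2 each), a log2 fold change of 0.63 (SE 0.066, 95% interval 0.50 to 0.76), 1.55-fold, edgeR adjusted p 2.4e-09. Of its 4451 exon bases, 1881 (42.3%) are shared with ZNF740 on the opposite strand. ZNF740 itself had 580 and 668 counts in shWNK1 and 579 and 546 counts in NS libraries, with a log2 fold change of -0.01 (SE 0.104, edgeR adjusted p 0.95). The ZNF740 counts were below those of ITGB7 in every library. How reads over the shared bases were assigned is not known here, and whether they bear on the ITGB7 difference was not tested.

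Among 6 tested partners and ligands of β7, 2 rose and 0 fell, where 18.5% of all tested genes rose and 20.2% fell. ITGA4, the α4 subunit, had 302 and 280 CPM in shWNK1 libraries, against 262 and 240.4 CPM in NS libraries (log2 0.21, edgeR adjusted p 0.0069, and 0.235 without shWNK1 replicate 1). TLN1, talin, which links integrins to actin, gave a log2 fold change of 0.24 (adjusted p 0.0021, and 0.213 without shWNK1 replicate 2). ITGAE gave 0.15 (adjusted p 0.476) and ITGB1, the β1 subunit that also pairs with α4, gave 0.04, neither called. The ligand VCAM1 had 0 counts in all libraries, and CDH1, the αE ligand E-cadherin, had 79 and 124 counts in shWNK1 and 87 and 79 counts in NS libraries.

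Of the chemokine receptors, CCR1 rose and CX3CR1 was at the limit of detection. CCR1 binds the chemokines CCL3 and CCL5, and CX3CR1 binds CX3CL1. CCR1 (ENSG00000163823.4, minus strand, chr3:46201711-46208313) had 2864 and 3402 counts in shWNK1 libraries, against 1972 and 2222 in NS libraries, which is 164 and 166 CPM against 116 and 131 CPM. No NS library reached the shWNK1 values: 165 ± 0.924 CPM in shWNK1 cells, against 123 ± 11.1 CPM in NS cells (SD, n = 2 each), a log2 fold change of 0.42 (SE 0.068, 95% interval 0.28 to 0.56), 1.34-fold, edgeR adjusted p 8.3e-06. Leaving out NS replicate 1 gave a log2 fold change of 0.33, and leaving out NS replicate 2 gave 0.52. CX3CR1 (ENSG00000168329.14, minus strand, chr3:39263495-39281735) had 0 and 5 counts in shWNK1 and 1 and 4 counts in NS libraries, too few to test. CCR1 is also a gene of myeloid cells, whose 6 markers had at most 10 counts in every library.

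CCR2, a receptor for other CC chemokines that was listed for comparison, had a larger fold change than any tested member. It had 726 and 814 counts in shWNK1 libraries, against 162 and 235 in NS libraries, which is 41.6 and 39.6 CPM against 9.499 and 13.9 CPM (log2 1.80, SE 0.137, edgeR adjusted p 5.9e-12). The ligand CCL3 had 36 and 34 counts in shWNK1 and 4 and 13 counts in NS libraries (log2 1.87, adjusted p 0.0105). Its log2 fold change ran from 1.26 to 2.95 as single libraries were left out, and its call was lost without either shWNK1 library or without NS replicate 1. CCL5 and CXCR4 were tested and not called. CX3CL1, the ligand of CX3CR1, had 0 counts in all libraries.

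RND3 had the largest fold change of the tested members. It encodes an atypical small GTPase that antagonises signaling through the kinase ROCK1 and loosens actin stress fibers. RND3 (ENSG00000115963.13, minus strand, chr2:150468195-150539011) had 269 and 343 counts in shWNK1 libraries, against 136 and 117 in NS libraries, which is 15.4 and 16.7 CPM against 7.97 and 6.91 CPM. The groups were well apart at 16.1 ± 0.894 CPM in shWNK1 cells, against 7.44 ± 0.749 CPM in NS cells (SD, n = 2 each), a log2 fold change of 1.11 (SE 0.165, 95% interval 0.77 to 1.44), 2.16-fold, edgeR adjusted p 1.8e-06. It was the one member that also passed the test against a change of 1.5-fold (adjusted p 0.0102), and the one member called with a change of at least 2-fold, as were 5.57% of tested genes. Its fold change was among the largest 6.86% of tested genes. Its level was low beside those of MAF and CCND2, at 15.7 TPM in shWNK1 and 7.04 TPM in NS cells. Of 8 tested relatives and effectors of RND3, 5 rose and 0 fell, where 18.5% of all tested genes rose and 20.2% fell. Their median log2 fold change was 0.23, against 0.01 over all tested genes. RND1, a close relative, had 133 and 102 counts in shWNK1, against 36 and 35 in NS libraries (log2 1.58, adjusted p 4.3e-05), and RHOB, a small GTPase, had 118 and 120.3 CPM in shWNK1 and 70.1 and 75.1 CPM in NS libraries (log2 0.72, adjusted p 1.6e-09). RHOA gave a log2 fold change of -0.08 (adjusted p 0.316) and ROCK1 gave -0.01, neither called.

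NUAK1 and NTRK2 are the kinases among the members. NUAK1 (ENSG00000074590.13, minus strand, chr12:106063340-106140033), an AMPK-related kinase activated by STK11, had 1940 and 2217 counts in shWNK1 and 1918 and 1877 counts in NS libraries. Its CPM values, 111 and 108 in shWNK1 and 112 and 111 in NS libraries, overlapped, with a log2 fold change of -0.03 (SE 0.069, 95% interval -0.17 to 0.11, edgeR adjusted p 0.787). NTRK2 (ENSG00000148053.16, plus strand, chr9:84668551-85027070), the receptor of the neurotrophin BDNF, had 7 and 8 counts in shWNK1 and 1 and 2 counts in NS libraries, too few to test. Among 7 tested genes around NUAK1, STRADA and PPP1R12A rose and CAB39 and STK11 fell (over all tested genes, 18.5% rose and 20.2% fell). STRADA, a pseudokinase that holds STK11 active, had 92 and 108 counts in shWNK1, against 46 and 23 in NS libraries (log2 1.37, adjusted p 6.5e-04), and CAB39, the scaffold of the same complex, had 75.6 and 69.3 CPM in shWNK1 and 95.2 and 95.6 CPM in NS libraries (log2 -0.40, adjusted p 8.1e-05). The calls of PPP1R12A, a NUAK1 substrate, and STK11 were each lost without 1 shWNK1 library (adjusted p 0.103 for PPP1R12A without replicate 2 and 0.0825 for STK11 without replicate 1). Of the neurotrophin genes, SORT1 alone had enough counts to test (log2 0.17, adjusted p 0.479).

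DEPTOR, an inhibitor that binds the mTOR kinase, was lower in both shWNK1 libraries but missed the threshold. DEPTOR (ENSG00000155792.10, plus strand, chr8:119873717-120050918) had 224 and 282 counts in shWNK1 and 306 and 270 counts in NS libraries, which is 12.8 and 13.7 CPM against 17.9 and 15.96 CPM. The log2 fold change was -0.35 (SE 0.145, 95% interval -0.64 to -0.06) with an edgeR adjusted p of 0.0538. As single libraries were left out, the log2 fold change ran from -0.43 to -0.26 and the adjusted p from 0.0302, without NS replicate 2, to 0.285, without shWNK1 replicate 1. An opposite-strand gene, DEPTOR-AS1, shares 9.59% of its exon bases. Of 15 tested genes of the mTOR complexes and of DEPTOR turnover, 5 rose and 2 fell, with a median log2 fold change of 0.12 (over all tested genes, 18.5% rose and 20.2% fell, median 0.01). RICTOR, the defining subunit of mTORC2, had 85.4 and 89.2 CPM in shWNK1 and 54.6 and 57.7 CPM in NS libraries (log2 0.64, adjusted p 8.8e-08). RPTOR, the defining subunit of mTORC1, also rose (log2 0.35, adjusted p 0.0010). AKT1S1, an mTORC1 inhibitor also called PRAS40, gave a log2 fold change of 0.55 (adjusted p 2.8e-06), and EIF4EBP1, a translation repressor that mTORC1 phosphorylates, gave -0.34 (adjusted p 1.3e-04). TELO2, which helps assemble mTOR complexes, gave -0.35 (adjusted p 0.0016, and 0.115 without shWNK1 replicate 1). MTOR itself gave 0.03 (adjusted p 0.736).

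ARID5A fell with MAF. It encodes a protein that, in mouse, stabilises the Il6 transcript against decay by the nuclease Regnase-1. ARID5A (ENSG00000196843.17, plus strand, chr2:96536743-96552634) had 872 and 1017 counts in shWNK1 libraries, against 1038 and 1103 in NS libraries, which is 49.995 and 49.5 CPM against 60.9 and 65.2 CPM. The groups did not overlap: 49.7 ± 0.365 CPM in shWNK1 cells, against 63.0 ± 3.06 CPM in NS cells (SD, n = 2 each), a log2 fold change of -0.34 (SE 0.085, 95% interval -0.52 to -0.17, edgeR adjusted p 0.0016). IL6 had 0 counts in every library. Of the 4 tested genes around ARID5A, 3 rose (18.5% of all tested genes did), among them IL6ST, the signaling subunit of the IL-6 receptor, at 477 and 440 CPM in shWNK1 and 293 and 271 CPM in NS libraries (log2 0.70, adjusted p 5.8e-11). ZC3H12A, which encodes Regnase-1, gave a log2 fold change of 0.61 (adjusted p 0.0032), a call lost without shWNK1 replicate 2 and without NS replicate 1. ARID5B, the paralog of ARID5A, gave 0.34 (adjusted p 0.0569) and was not called.

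Side by side, 6 of the 8 tested members were called, where 38.8% of tested genes were: CCND2, ITGB7, CCR1 and RND3 rose and MAF and ARID5A fell. Among all tested genes 18.5% rose and 20.2% fell. The median log2 fold change of the 8 was 0.19, against 0.01 over all tested genes. In 7 of the 8 the libraries of the groups did not overlap, NUAK1 being the exception, against 68.4% of all tested genes. The members therefore did not move in 1 direction, and RND3 alone changed by more than 1.55-fold. By size of fold change ITGB7 stood among the largest 21.5% of tested genes, MAF among the largest 50.2% and NUAK1 among the largest 94.5%.

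**Figure D2:**
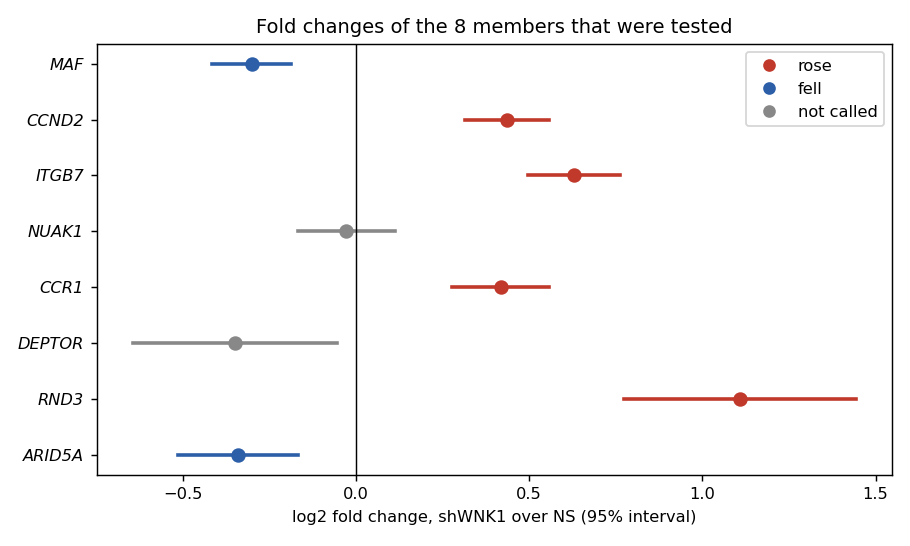
Log2 fold change of shWNK1 over NS for the 8 tested members, as points with 95% intervals from edgeR; red marks members that rose, blue those that fell and gray those not called. RND3 lies farthest right at 1.11 and MAF at -0.30, and NUAK1 is the one member whose interval crosses 0.

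**Figure D3:**
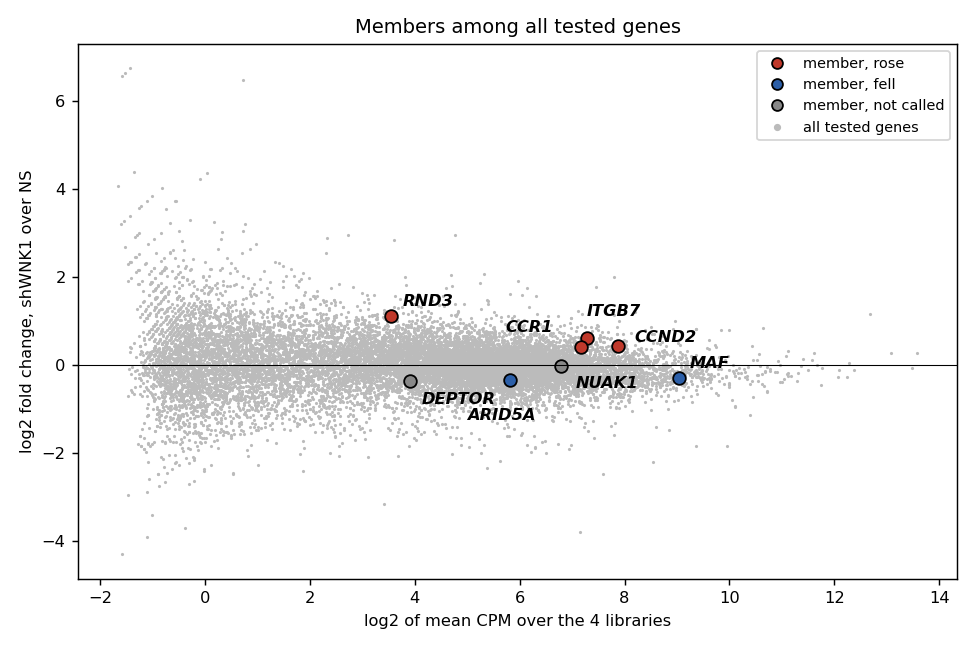
Log2 fold change of shWNK1 over NS (vertical) against the log2 of the mean CPM over the 4 libraries (horizontal) for the 14864 tested genes in gray, with the 8 tested members named. The members lie inside the cloud of all genes at their levels, with MAF the most abundant of them.

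The companions were also set against the MAF counts of the same library. Per 1000 MAF counts, CCND2 had 569 and 585 counts in shWNK1 libraries, against 350 and 343 in NS libraries, a ratio of means of 1.67. ITGB7 had 394 and 409 per 1000 MAF counts in shWNK1, against 218 and 203 in NS libraries (ratio 1.91), and CCR1 had 350 and 352 in shWNK1 and 199 and 228 in NS libraries (ratio 1.64). The ratio was 2.66 for RND3 and 1.21 for NUAK1, whose libraries gave 237 and 230 in shWNK1 and 193 in each NS library. For ARID5A and DEPTOR the ratios were 0.972 and 0.966, and the ARID5A values of the groups, 107 and 105 in shWNK1 and 105 and 113 in NS libraries, lay close together. These ratios share the MAF count of each library and carry no test.

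Within its own family, MAF fell while MAFA and MAFF rose. Of 6 tested MAF family genes, MAF included, 2 rose, 2 fell and 2 were not called (over all tested genes, 18.5% rose and 20.2% fell). MAFA, a large MAF known from pancreatic β cells, had 66.5 and 73.7 CPM in shWNK1 libraries, against 49.0 and 47.9 CPM in NS libraries (log2 0.53, SE 0.086, edgeR adjusted p 6.3e-06). MAFF, a small MAF that lacks a transactivation domain, had 200 and 275 counts in shWNK1 and 79 and 115 counts in NS libraries (log2 1.12, adjusted p 2.3e-05). Another small MAF, MAFK, had 78.0 and 77.5 CPM in shWNK1 and 93.9 and 107 CPM in NS libraries (log2 -0.37, adjusted p 2.1e-04), and MAFG gave -0.10 (adjusted p 0.376). NRL, the large MAF of photoreceptors, had 8 and 18 counts in shWNK1 and 22 and 5 counts in NS libraries. Summed over the large MAF genes MAF, MAFA and NRL, the level was 321 and 327 TPM in shWNK1 and 347 and 332 TPM in NS libraries. MAF made up 73.9% and 71.9% of that sum in shWNK1 libraries and 82.5% and 82.8% in NS libraries, and MAFA made up 25.9% and 27.9% in shWNK1 and 17.2% and 17.1% in NS libraries. MAFA therefore had a larger share of these transcripts in both shWNK1 libraries, and no test was made of the share.

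**Figure D4:**
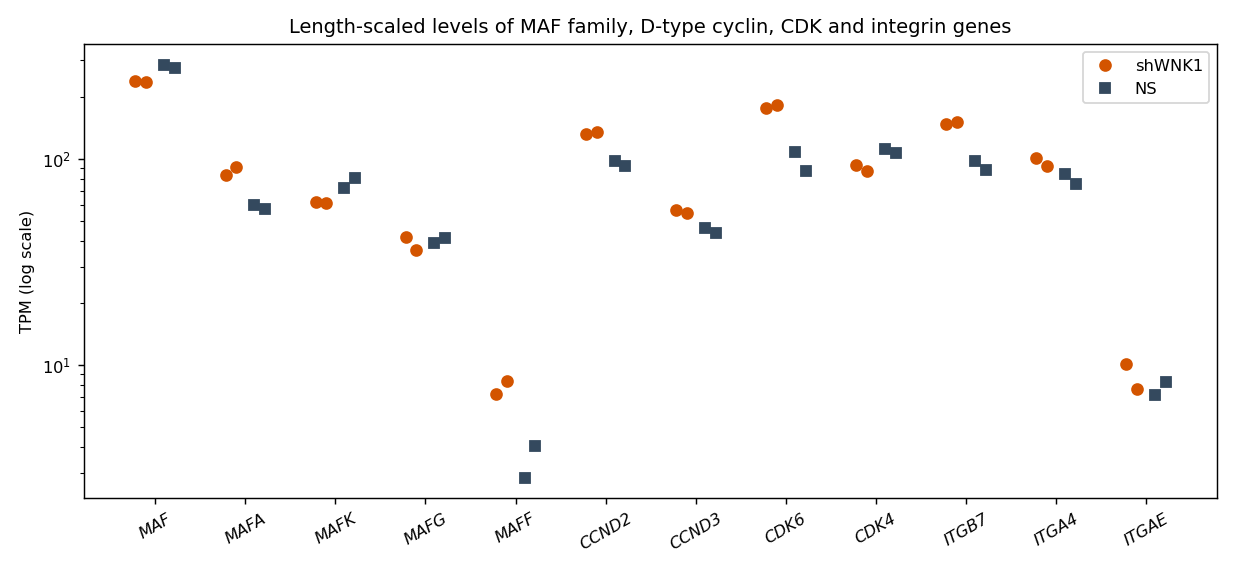
Level per length (TPM, log axis) of tested MAF family, D cyclin, CDK and integrin genes, 1 point per library, shWNK1 as circles left of NS as squares. MAF at 237 and 235 TPM in shWNK1 and 286 and 275 TPM in NS libraries leads its family, and CCND2 lies above CCND3 in every library.

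Small MAF proteins act in dimers with other bZIP factors. Of 5 such genes tested, 1 rose and 2 fell (over all tested genes, 18.5% rose and 20.2% fell). NFE2L1 rose (log2 0.54, edgeR adjusted p 1.1e-08), with 261 and 272 CPM in shWNK1 and 183 and 185 CPM in NS libraries. NFE2L3 fell (log2 -0.54, adjusted p 2.2e-07), with 154 and 129 CPM in shWNK1 and 205 and 207 CPM in NS libraries. NFE2L2 and BACH1, factors of the oxidative stress response, gave 0.14 and 0.12 and were not called. BACH2 passed narrowly (log2 -0.25, adjusted p 0.0487) and lost the call under DESeq2, limma-voom and 3 of the 4 fits that leave out a library (adjusted p up to 0.338).

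Genes that act on the MAF protein were also measured, at the RNA level alone. Of 8 tested, 2 rose and 3 fell (over all tested genes, 18.5% rose and 20.2% fell). USP7, a deubiquitinase that stabilises MAF, had 343 and 347 CPM in shWNK1 libraries, against 460.1 and 448 CPM in NS libraries (log2 -0.40, edgeR adjusted p 9.6e-07). GSK3B, a kinase that phosphorylates MAF ahead of its degradation, had 44.7 and 41.9 CPM in shWNK1 and 57.1 and 55.8 CPM in NS libraries (log2 -0.38, adjusted p 7.8e-04). HERC4, a ubiquitin ligase for MAF, gave 0.37 (adjusted p 0.0024, and 0.0792 without shWNK1 replicate 1). GSK3A gave 0.22 (adjusted p 0.035), a call that was lost in 3 of the 4 fits that leave out a library.

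Other genes tied to MAF in myeloma or elsewhere moved in both directions. NOTCH2, which is high in MAF-expressing myeloma, had 311 and 333 CPM in shWNK1 libraries, against 604 and 532 CPM in NS libraries (log2 -0.82, edgeR adjusted p 4.0e-12). TLR4, the receptor for bacterial lipopolysaccharide, had 243 and 279 counts in shWNK1 and 457 and 378 counts in NS libraries (log2 -0.84, adjusted p 7.1e-06). The cytidine deaminase gene APOBEC3B gave 0.26 (adjusted p 0.0041, and 0.123 without shWNK1 replicate 1). IL10, a cytokine gene that MAF activates in T cells and macrophages, had 1133 and 1203 counts in shWNK1 libraries, against 347 and 415 in NS libraries, which is 65.0 and 58.5 CPM against 20.3 and 24.5 CPM. Its log2 fold change was 1.46 (SE 0.104, adjusted p 8.1e-13), while IL4, IL21, CRYAA and CRYAB, targets of MAF in T cells or the lens, had at most 7 counts in any library. Of the other myeloma translocation genes, MYC fell by 0.69 on the log2 scale (453 and 485 CPM in shWNK1 and 756 CPM in each NS library, adjusted p 1.6e-11). NSD2 and IRF4 each gave -0.23 (adjusted p 0.0016 for NSD2 and 0.0014 for IRF4), and the IRF4 call was lost without shWNK1 replicate 1 (adjusted p 0.125). Over all 112 listed genes of these pathways, 84 were tested, 34 rose and 17 fell, with a median log2 fold change of 0.16 (over all tested genes, 18.5% rose and 20.2% fell, median 0.01). With either shWNK1 library left out, 20 rose.

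**Figure D5:**
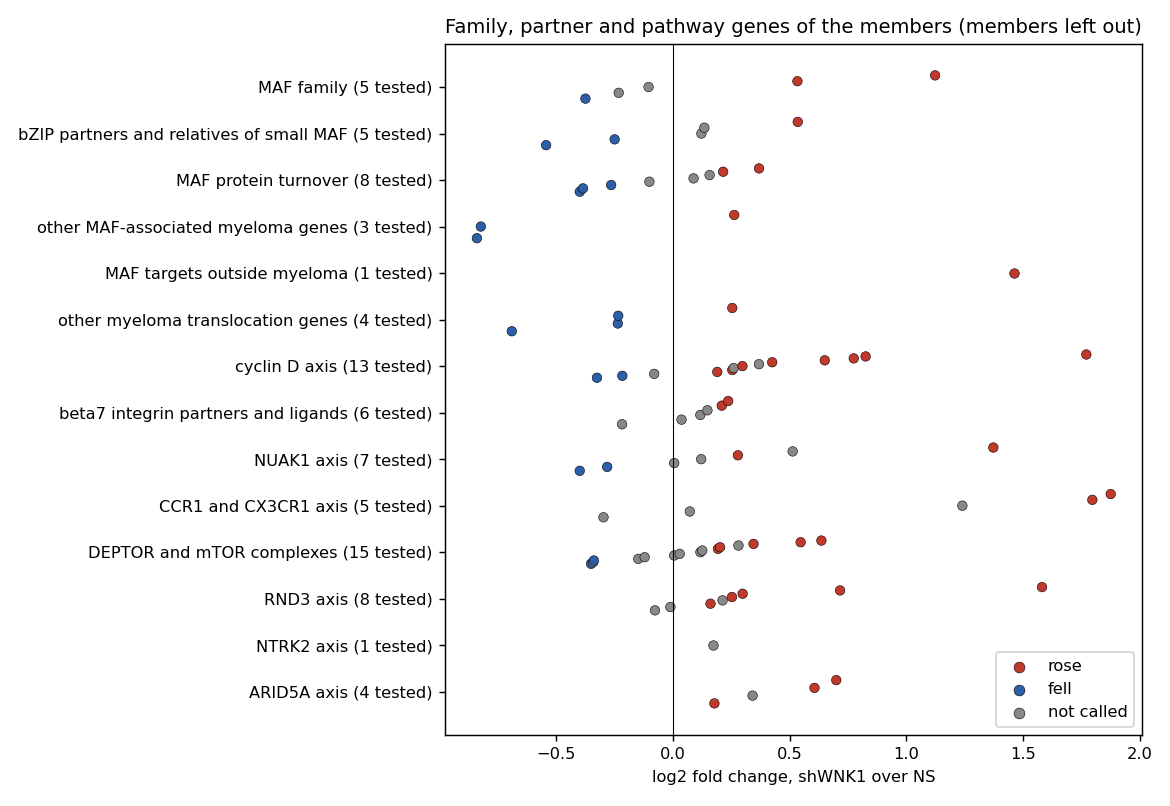
Log2 fold change of shWNK1 over NS for the tested genes of each listed group around the members, which are left out; each point is a gene, red where it rose, blue where it fell and gray where it was not called. Most groups hold genes on both sides of 0, from TLR4 at -0.84 on the left to CCL3 at 1.87 on the right.

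Around MAF on chromosome 16, 31 genes including MAF lie wholly within 1 Mb, and 15 of these had 0 counts in all libraries. MAF was the single gene called of 9 tested, where 38.8% of all tested genes were called. Of the genes other than MAF, 27 had at most 30 counts in every library. The other 8 tested genes had an SE of 0.202 to 0.897, against 0.056 for MAF. A change of the size seen for MAF could pass uncalled in them. The nearest tested genes were ENSG00000277214, with 48 and 32 counts in shWNK1 and 42 and 55 counts in NS libraries (log2 -0.42, edgeR adjusted p 0.399), and ENSG00000278058, with 137 and 124 counts in shWNK1 and 119 and 126 counts in NS libraries (log2 -0.06, adjusted p 0.852). LINC01229, a long noncoding RNA gene farther from MAF than both, had 114 and 165 counts in shWNK1 and 122 and 169 counts in NS libraries (log2 -0.23, edgeR adjusted p 0.399). WWOX, a tumor suppressor gene on the plus strand at chr16:78099430-79212667, extends past that window and was looked up after its values were seen. It had 157 and 154 counts in shWNK1 and 164 and 222 counts in NS libraries (log2 -0.47, SE 0.185, adjusted p 0.0448). Its adjusted p reached 0.462 as single libraries were left out, and was 0.140 under DESeq2.

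The genes whose pattern over the 4 libraries was nearest to that of MAF were HSD17B4, NSF, TUBA1C, MFSD12 and EIF2S1. Likeness was the Euclidean distance between centred log2(CPM + 1) values over the 4 libraries, and those 5 distances ran from 0.0110 to 0.0181 among 12814 genes ranked. Of the members, ARID5A was nearest at 0.0896 (rank 394), followed by DEPTOR at 0.120 (rank 766) and NUAK1 at 0.275 (rank 3582). CCR1, CCND2, ITGB7 and RND3 were far from MAF, at 0.731, 0.735, 0.929 and 1.32. With 4 libraries in 2 groups, the distance mostly orders genes by their difference between the groups.

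A word of 6 bases, AGTATC, that an earlier analysis of these data had picked out in 3′ UTRs was looked up in the members with GENCODE v29. Of the tested genes with a 3′ UTR searched, it was present in 35.5% of those that fell, 20.0% of those that rose and 23.1% of those not called. Because the word was chosen from these same data, the excess among falling genes is not independent of that choice. The shares were not adjusted for 3′ UTR length, and whether length differs between these groups was not tested. CCND2, which rose, and NTRK2 each held 1 match. MAF, ITGB7, NUAK1, CCR1, DEPTOR, CX3CR1, RND3 and ARID5A held 0, the members that fell among them. The longest 3′ UTR was 5344 bases for CCND2 and 6084 for NTRK2, against 4453 for MAF, 379 for ITGB7 and 328 for ARID5A. A short 3′ UTR leaves little room for a match, so absence there says little.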

How the data were processed

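The authors deposited raw counts per gene for all 4 libraries, made with featureCounts 2.0.0 on GENCODE 34 without strand, at a mapping quality of at least 20 with both ends mapped, per the file headers. The submitters' processing notes name Trimmomatic, STAR and hg38, without versions. One gene broken over lines and 45 Y copies of pseudoautosomal genes were left out. One title has shNWK1 in place of shWNK1 (replicate 2), taken here as a typing error.

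Counts were tested with edgeR 4.0.16 (R 4.3.3): filterByExpr, TMM factors, robust glmQLFit and two-sided glmQLFTest, shWNK1 over NS, with 2 residual degrees of freedom and p-values adjusted over 14864 genes. TPM used the deposited gene lengths. The main test was also run on counts simulated from the fitted means and dispersions, with 200 genes changed. It called 34 of 49 genes changed 1.5-fold, 32 of 48 changed 2-fold and 2 of 14067 left unchanged. Far fewer genes were changed there than were called in the data. Alternatives were DESeq2 1.42.0, limma 3.58.1 (voom), other factors and filters, a 1.5-fold test, a replicate block and leaving out each library. The members and gene lists were chosen with earlier results of these data known. Named were the members, WNK1, close partners, up to 2 rising and 2 falling genes per list by smallest p, genes near MAF and those nearest in pattern; others are named as examples. A count of 3, about the 95% limit at 0, is 0.149 to 0.177 CPM. The main fit did not pair libraries by their shared number, as deviations of same-numbered libraries correlated at 0.0219 over 10336 genes. Column names of same-numbered libraries share a letter, A or B. With 2 libraries a group, the correlation cannot show that they were made separately. Results for a few listed genes are not reported here.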

Additional observations from a re-analysis of the deposited data

How the results depend on the processing

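The 6 member calls held in all alternatives other than the test against a change of 1.5-fold, leave-one-outs included. Against 1.5-fold, 1 member rose and 0 fell, MAF gave -0.30 with an adjusted p of 1, 7 listed pathway genes rose and 1 fell, and over all genes 303 rose and 353 fell. As single libraries were left out, 4 members rose and 2 to 3 fell, MAF ran from -0.31 to -0.29, 20 to 35 pathway genes rose and 10 to 17 fell, and over all genes 1632 to 2778 rose and 1964 to 3024 fell. The lowest counts of rising genes, 1632 and 1663, came without shWNK1 replicate 2 and replicate 1, and the lowest counts of falling genes, 1964 over all genes and 10 in the pathways, without shWNK1 replicate 1. With the replicate number as a block, MAF gave -0.30 (adjusted p 0.0014), and 4 members rose and 2 fell; over all genes 2539 rose and 2804 fell. Upper-quartile factors moved the median of all genes to 0.04 and gave 3154 rising and 2672 falling genes. NUAK1 turned to 0.0110 (adjusted p 0.92) with those factors. NRL, at 5 to 22 counts, turned to 0.0423 with limma-voom and ran from -0.92 to 1.17 as libraries were left out. ITGAE ran from -0.0523 to 0.33, CDH1 from -0.11 to 0.31 and MTOR from -0.0144 to 0.0800. None of these was called, and the cause was not tested. Depth limits CX3CR1 and NTRK2, at 8 counts or fewer, and 2 libraries a group limit all intervals.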
